A study of Mus musculus with 6 samples.

Results

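The baseline expression of sorted mouse mammary ER-negative luminal cells was described from 3 microarrays, WT1, WT2 and WT3. These are the 3 arrays labelled WT of the 6 in the series. All probe sets that are not array controls were taken, 22206 of the 28846 on each array. A single gene symbol was available for 19572 of them, covering 19505 genes, and the other 2634 are unnamed here. The measured quantity was the array signal on the log2 scale, so a difference of 1 is a 2-fold difference in signal.

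Each WT array held RNA of sorted cells from 1 female mouse in diestrus, between 8 and 12 weeks old. These mice carried the floxed Sox9 allele on both chromosomes (Sox9 Fl/Fl) without the MMTV-iCre transgene, on a mixed C57BL/6J and FVB/NJ background, and are therefore WT for Sox9 expression and not an inbred strain. Litter, parity and day of sorting are not stated. Cells were sorted as negative for the lineage antigens TER119, CD45 and CD31, high for EpCAM, low for CD49f and negative for Sca1. The arrays compared with them in the series, from Sox9 KO cells, entered no fit and no value below.

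The luminal layer of the mammary duct holds a hormone-sensing lineage that carries the estrogen receptor and an ER-negative lineage that does not. The ER-negative lineage contains the luminal progenitors, which are known for the receptor tyrosine kinase Kit, the transcription factors Elf5 and Sox9 and the retinal dehydrogenase Aldh1a3. In pregnancy its cells expand into the milk-secreting alveoli, whose casein and whey protein genes are switched on by prolactin through Stat5.

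Expression was judged against the 5222 negative control probe sets of the same array. The bar used throughout is their 95th percentile, which lay at 8.58 on WT1, 8.40 on WT2 and 7.87 on WT3. The negative controls themselves had medians of 5.05, 4.94 and 4.55 on these arrays, whereas the probe sets had nearly the same median on each, 6.18, 6.12 and 6.16. WT3 thus had a lower bar and 29.3% of its probe sets above it, against 20.8% on WT1 and 22.3% on WT2. The antigenomic background probe sets, another control class, had the opposite order. Their 95th percentile was 7.68 on WT1, 7.95 on WT2 and 8.01 on WT3. Statements below that a gene was above the bar on WT3 only therefore hold for the negative control bar. Some negative controls were themselves bright, up to 13.87 on WT1, so the bar is strict and a gene below it is not shown to be silent. Probes differ in how strongly they bind, so a gene's distance from the bar also depends on its probes, and genes listed by that distance are not thereby ordered by their amount of RNA.

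**Figure D1:**
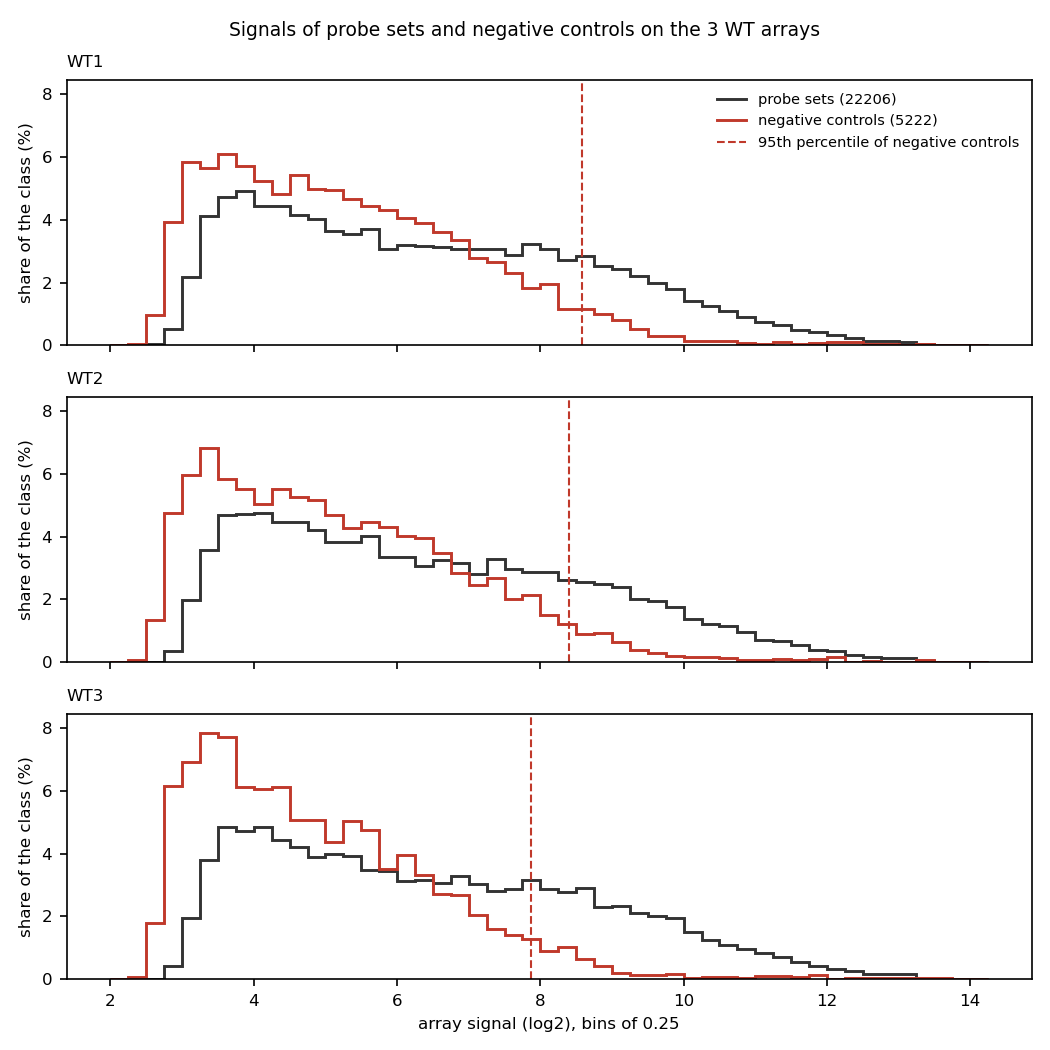
Share of the 22206 probe sets (dark line) and of the 5222 negative controls (red line) in bins of log2 array signal, 1 panel for each WT array, with the 95th percentile of the negative controls as a dashed line. Both classes overlap widely below the dashed line, and the line lies further left on WT3 (7.87) than on WT1 (8.58) and WT2 (8.40).

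Of the 22206 probe sets, 4000 (18.0%) were called above the bar by limma with an adjusted p under 0.05, and 4391 (19.8%) lay above it on all 3 arrays. The 2 criteria shared 3940 probe sets. A further 2185 were above on 1 or 2 arrays, and 15630 (70.4%) on none. Among the genes, 3614 of 19505 were called (18.5%). The negative controls put through the same test gave 158 of 5222 calls (3.03%). The bar is a percentile of these same controls, so their share above it was set in advance and is not an independent error rate. The fit gave every probe set the same standard error, 0.268. The call is therefore in effect a limit on the mean difference, the smallest called being 0.544, and the number of arrays above the bar is given beside it where the counts disagree. Each share of called genes below is to be read against the 18.5% of all genes.

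The arrays of the 3 mice were alike. Across probe sets the correlation was 0.987 between WT1 and WT2, 0.984 between WT1 and WT3 and 0.988 between WT2 and WT3, given as a description because probe sets are not independent. The standard deviation (SD) between mice had a median of 0.162 among the 5302 probe sets with a mean above the bar. Of these, 202 (3.81%) ranged over more than 1 log2 unit between the lowest and the highest mouse.

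Most genes listed as markers of these cells were above the bar. The list was chosen with earlier results of these data known, so it is no independent check of the label. Of 20 genes listed for ER-negative luminal cells, 15 were called above the bar and 14 were above it on all 3 arrays, against 18.5% of all genes, and their median lay 2.89 log2 units above the bar, against a median 2.01 below it for all genes. Kit, the receptor for stem cell factor, had signals of 11.72, 11.53 and 11.34 on WT1, WT2 and WT3. Sox9, the transcription factor studied in this series, had 11.60, 11.54 and 11.47. Both were thus about 3 log2 units above the bar in every mouse, 3.25 on average for each, with SDs of 0.19 and 0.07 (n = 3).

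Sox10, a relative of Sox9 in the same family, stood at 11.32, 11.27 and 11.40. Plet1, a membrane-anchored surface protein, stood at 13.04, 13.15 and 12.96, and Aldh1a3, which makes retinoic acid, at 11.40, 11.34 and 10.97. These genes differed between mice by no more than 0.43. Ltf, which encodes the iron-binding milk protein lactoferrin, was also above the bar in each mouse but ran over a wider span, with 10.56 on WT1, 11.06 on WT2 and 11.72 on WT3.

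Elf5, the Ets factor of alveolar fate, was the marker closest to the bar. Its signals were 8.49, 9.07 and 9.15, which put WT1 just under its own bar and the other mice over theirs. The mean difference was 0.62 (SE 0.268, adjusted p = 0.0242 in limma). The call was lost without WT3 (0.29, adjusted p = 0.185). It was also lost without WT2 (0.60, adjusted p = 0.178), although the difference hardly changed. That fit on 2 arrays needed a larger difference for a call, 0.83 being uncalled there (Irf1) and 0.88 called (Tspan1). The given markers of these cells were otherwise above the bar on all 3 arrays.

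Another 5 genes of the list were not called. Id4, an inhibitor of helix-loop-helix factors, had 6.18, 6.19 and 5.95, and Tnfrsf11a, which encodes the RANK receptor, had 7.26, 7.29 and 6.99. Rspo1 and Gabrp were likewise below the bar in every mouse, with means 1.06 and 2.16 below it. Itgb3, the CD61 integrin chain used to sort luminal progenitors, was the one uncalled member that reached the bar in a mouse, with 7.16, 7.88 and 8.89 on WT1, WT2 and WT3.

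The remaining called members were Wfdc18, Trf, Mfge8, Csn3, Cd14, Lbp, Itga2 and Hey1. Trf (transferrin) and Mfge8 (a milk fat globule protein) had means 4.61 and 4.52 above the bar, and Cd14 and Lbp, which bind bacterial lipopolysaccharide, means 3.80 and 2.45 above it. Hey1, a target of Notch signaling, had 9.70 and 9.68 on WT1 and WT2 and 10.60 on WT3, so that WT3 stood above the other mice.

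**Figure D2:**
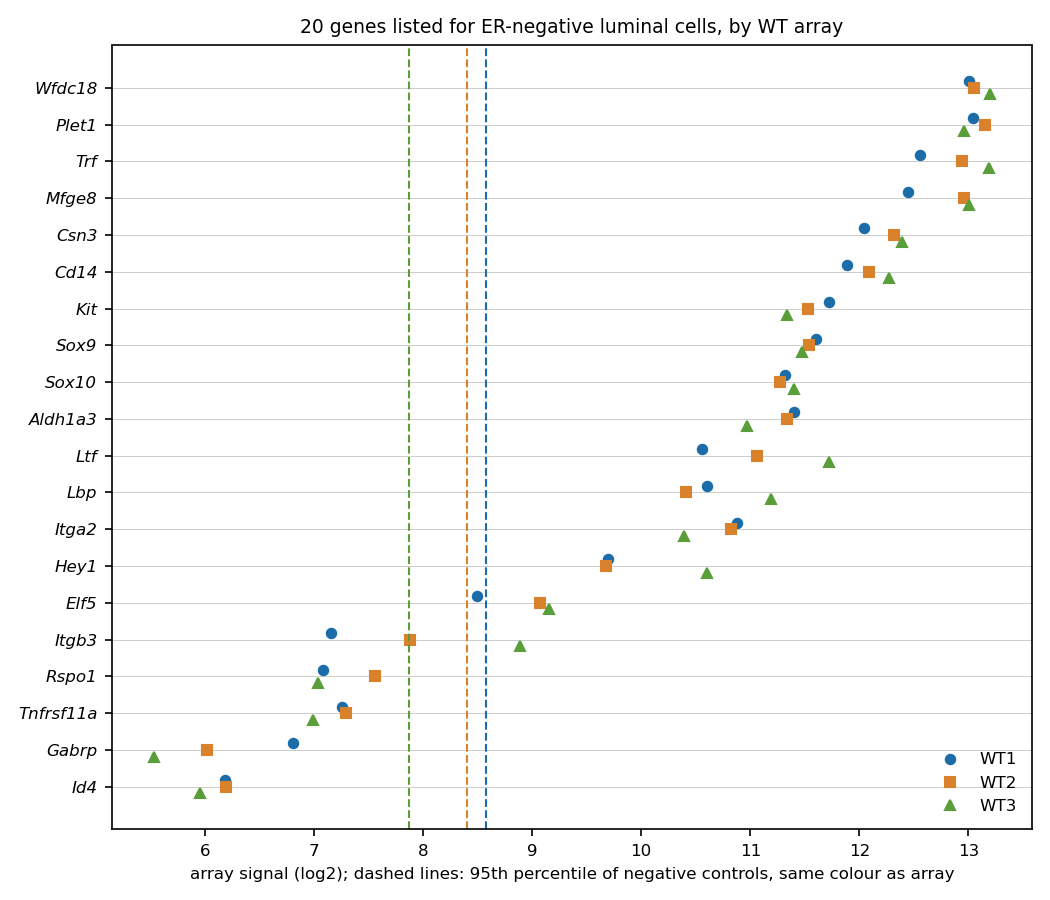
Log2 array signal of the 20 genes listed for ER-negative luminal cells on WT1 (circles), WT2 (squares) and WT3 (triangles), ordered by their mean distance from the negative controls, with each array's 95th percentile of the negative controls as a dashed line of the same colour. 14 genes lie right of all 3 lines, Elf5 falls left of its line on WT1 only (8.49 against 8.58), and Id4, Gabrp, Tnfrsf11a and Rspo1 lie left of the lines in every mouse.

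The antigens of the sort were above the bar for the gates that kept stained cells and below it for the lineage antigens measured, while an array signal does not grade high against low staining. Epcam had 12.18, 12.21 and 12.12 and Itga6, which encodes CD49f, had 11.68, 11.62 and 11.28. Ptprc (CD45) had 5.83, 5.97 and 5.80, below the bar in every mouse, and Pecam1 (CD31) had 6.71, 4.99 and 5.60. Pecam1 was below the bar on all 3 arrays too, but it was highest on WT1, over a range of 1.72. Ly6a, the Sca1 gene, is not named among the probe sets here.

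The general luminal genes were mostly far above the bar. Of 20 luminal epithelial genes, 18 were called above the bar and 19 were above on all 3 arrays, with a median 2.83 above it and a median SD of 0.17, close to the 0.162 of all probe sets with a mean above the bar. None ranged over more than 1 log2 unit, as 3.81% of those probe sets did. Krt18 (13.37, 13.47 and 13.33) and Krt8 (13.07, 13.04 and 12.85) encode the paired keratins of simple epithelium. Cdh1 (E-cadherin) had 12.93, 12.85 and 12.64, and Cldn7, a claudin, had 12.48, 12.50 and 12.51. All 4 stood more than 4 log2 units above the bar in each mean, and Cldn7 differed by only 0.03 between mice.

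Tjp1, a scaffold of the tight junction, was the member with a mean below the bar, at 8.21, 8.14 and 8.09. Prss8, a membrane-anchored protease, was above on all 3 arrays (8.74, 8.76 and 8.40) but its mean difference of 0.35 was not called. The widest member was Grhl2, a regulator of epithelial junction genes, at 9.71, 8.80 and 9.30, which was above the bar in each mouse.

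Within the keratin family, grouped by symbol after the values had been seen, 5 of 49 genes were called (10.2%, against 18.5% of all genes): Krt18, Krt8, Krt19, Krt7 and Krt80. Krt80 was the 1 of these that missed the bar in a mouse, WT1 (8.55). Krt7 and Krt19, both keratins of simple epithelium, stood 2.84 and 3.52 above the bar. Among 25 claudins, the proteins that seal tight junctions, 4 were called (16%, near the 18.5% of all genes), which were Cldn7, Cldn4, Cldn1 and Cldn3, and 5 were above on all 3 arrays. Of 25 integrin subunits 9 were called (36%, against 18.5% of all genes), among them Itga6, Itgb1, Itgb6 and Itga2, and 10 were above on all 3 arrays. Integrin subunit Itgb6, a partner of Itgav, ranged most of the called ones, with 10.86, 11.29 and 10.17.

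Transcription factors of the luminal lineage were split between those well above the bar and those near it. Of 24 measured, 14 were called (58.3%, against 18.5% of all genes), with a median 0.61 above the bar. The count fell to 6 with the 99th percentile of the negative controls as the bar and to 9 in a one-sample test of each gene. Stat3, the transducer of cytokine signals, had 12.27, 12.20 and 12.31, and Runx1, a core-binding factor, had 11.05, 11.25 and 11.05. The Ets factor Ehf had 11.13, 10.83 and 10.69 and Cebpd, a C/EBP factor, 10.50, 11.06 and 10.97. All 4 lay above the bar in each mouse.

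Stat5a (8.70, 8.32 and 8.48) and Stat5b (8.58, 8.39 and 8.44), which carry the prolactin signal to the milk genes, had means 0.22 and 0.19 above the bar and were not called. Bcl11a, Grhl3, Hes1 and Cebpb were below the bar in every mouse, as was Id4. Among all 19 genes named Sox with a number, Sox9, Sox10 and Sox4 were called (15.8%, near the 18.5% of all genes), and the other 16 were below the bar on every array. Sox4, a Sox factor of another subgroup, had 9.47, 10.13 and 10.17.

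Among 25 Ets factors, 8 were called (32%) against 18.5% of all genes, and 9 were above on all 3 arrays. Etv6 (11.82, 11.41 and 11.69), a repressor, and Elf2 (11.07, 11.28 and 11.34) had means 3.36 and 2.95 above the bar. Elf5 was the called family member nearest the bar and the only one of the 8 that missed it in a mouse.

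Cell surface receptors of growth factor and cytokine pathways were called in 13 of 24 cases (54.2%, against 18.5% of all genes). The count was 4 with the 99th percentile of the negative controls as the bar and 20 with the 90th. After Kit, the members furthest above the bar were Fgfr1 (11.06, 11.07 and 10.96), a receptor for fibroblast growth factors, Met (11.05, 11.26 and 10.59), the receptor for hepatocyte growth factor, and Il4ra (10.74, 10.83 and 10.83), which binds interleukin 4. Il13ra1, which pairs with Il4ra, stood at 10.28, 10.05 and 10.17, and Osmr, for oncostatin M, at 10.19, 10.40 and 9.76. These receptors were above the bar in every mouse.

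Notch2 was called (10.12, 10.17 and 9.70), whereas Notch1, which marks ER-negative luminal progenitors, lay at the bar with 8.74, 8.30 and 8.28. That put Notch1 above on WT1 and WT3 and below on WT2, with a mean difference of 0.16 that was not called. Fgfr2 was the widest receptor, at 7.81, 7.62 and 9.74, and was above the bar on WT3 only, at least 1.34 log2 units over WT2. Egfr, Lgr5, Igf1r and Tnfrsf11a were above the bar in no mouse.

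The 15 genes with the largest mean difference from the bar were alike in all mice. Rplp1, Rpl41, Rpsa, Rpl37a, Rpl31, Rps18, Rpl38, Rps29 and Rps14 encode ribosomal proteins and Eef1a1 the elongation factor that brings charged tRNA to the ribosome, and their means lay between 4.88 and 5.31 above the bar. The other 5 were Krt18, Ly6e, Lmna, Lcn2 and Tm4sf1. Ly6e, a lipid-anchored Ly6 protein, had 13.30, 13.26 and 13.37, Lmna, which encodes the nuclear lamins A and C, 13.27, 13.22 and 13.23, and Tm4sf1, a membrane protein, 13.09, 13.27 and 13.11. None of the 15 ranged over more than 0.18 between mice, and signals this bright are near the top of the scale, where the brightest probe set read 13.66.

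All 11 measured ribosomal protein genes of the list were called, with a median SD of 0.04, and by symbol 59 of 63 cytosolic ribosomal protein genes. The 4 not called were the paralogs Rpl3l, Rpl10l, Rpl39l and Rps4l, which are known for restricted expression. Of 19 genes of oxidative phosphorylation 16 were called (84.2%), among them Cox4i1 (12.26, 12.42 and 12.55), a subunit of cytochrome oxidase, and Atp5b (12.27, 12.39 and 12.46), of ATP synthase. Of 11 common housekeeping genes 9 were called, with a median SD of 0.12. The proteasome, which degrades tagged proteins, had 30 of 38 subunits called, and the subunits Psma8 and Psmb11 of the testis and thymus forms were among the 8 not called.

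Among genes with a mean above the bar, the casein genes Csn2, Csn1s2a and Csn1s1 had the widest ranges between the mice. The upstream sequences of these genes and of Lalba are shown because the 4 were the milk genes with the largest ranges among those with a mean above the bar. Each is the 250 bases before the annotated start, from RefSeq on GRCm38.p6, 5′ to 3′ on the strand of the gene, and capitals mark TTCNNNGAA, the palindromic core to which Stat factors bind. Csn2 (chr5:87699426-87699675, minus strand), Csn1s1 (chr5:87665958-87666207, plus strand) and Csn1s2a (chr5:87774200-87774449, plus strand) lie in 1 casein cluster, and Lalba at chr15:98482684-98482933 (minus strand).
Csn2: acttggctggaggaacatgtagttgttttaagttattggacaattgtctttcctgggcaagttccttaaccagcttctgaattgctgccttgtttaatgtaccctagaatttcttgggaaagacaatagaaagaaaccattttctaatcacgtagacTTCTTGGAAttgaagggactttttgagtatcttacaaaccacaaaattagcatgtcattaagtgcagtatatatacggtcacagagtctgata
Csn1s1: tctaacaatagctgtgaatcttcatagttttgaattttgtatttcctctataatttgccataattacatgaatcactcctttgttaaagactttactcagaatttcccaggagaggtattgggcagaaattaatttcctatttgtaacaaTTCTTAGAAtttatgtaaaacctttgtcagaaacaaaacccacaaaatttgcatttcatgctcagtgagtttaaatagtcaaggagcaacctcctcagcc
Csn1s2a: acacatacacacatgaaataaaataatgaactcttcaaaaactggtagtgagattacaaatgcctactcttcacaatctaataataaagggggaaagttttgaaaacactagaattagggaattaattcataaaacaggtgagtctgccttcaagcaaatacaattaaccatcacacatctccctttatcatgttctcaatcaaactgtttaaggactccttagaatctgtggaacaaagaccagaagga
Lalba: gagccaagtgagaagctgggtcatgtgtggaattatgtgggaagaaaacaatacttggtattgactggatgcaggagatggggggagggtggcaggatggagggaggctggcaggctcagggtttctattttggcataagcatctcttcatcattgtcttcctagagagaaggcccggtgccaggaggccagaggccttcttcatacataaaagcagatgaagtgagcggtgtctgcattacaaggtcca

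The core was found once in Csn2, as TTCTTGGAA with its first base at -93 from the start, and once in Csn1s1, as TTCTTAGAA at -100. The 250 bases of Csn1s2a and Lalba held no match to these letters. Over 32851 promoters searched the same way, 2306 (7.02%) held at least 1 match, and a match is a description of the letters only.

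Csn2, which encodes beta-casein, had a signal of 5.54 on WT1, 11.55 on WT2 and 12.49 on WT3. The signal on WT1 was below the bar of that array, so the distance is a bound: WT3 stood at least 3.91 log2 units above the bar of WT1. Csn1s2a, an alpha-casein gene, had 7.51, 12.35 and 13.13, a bound of at least 4.55 log2 units (23.4-fold) between WT3 and WT1. In both genes WT2 and WT3 lay within 1 log2 unit of each other and WT1 stood apart below.

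Csn1s1, the other alpha-casein gene, followed with 6.63, 10.69 and 10.74, at least 4.47-fold. Lalba, which encodes alpha-lactalbumin of the lactose-making enzyme, was above the bar in every mouse, at 9.74, 12.15 and 13.11, which made WT3 10.3-fold higher than WT1. WT1 was thus the lowest mouse for all 4 genes and WT3 the highest. Csn2 and Csn1s1 were called above the bar in the mean, by 1.58 and 1.07, but in limma not without WT2 (adjusted p = 0.0711 and 0.303) or without WT3 (adjusted p = 0.946 and 0.767).

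Over the whole milk and alveolar list, 10 of 17 genes were called (58.8%), 6 in a one-sample test of each gene, and 7 were above the bar on all 3 arrays. The called genes Csn3, Mfge8, Wfdc18 and Trf are also on the ER-negative marker list. WT3 was the highest mouse for 15 of the 17 and WT1 the lowest for 14, whereas over all probe sets with a mean above the bar WT3 was highest for 38.5% and WT1 lowest for 40.2%. The list median deviated from the 3-mouse mean by -0.41 on WT1, 0.07 on WT2 and 0.38 on WT3. Quantile normalization and median centring left the counts of highest and lowest genes at 15 and 14.

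Other milk genes differed less between the mice. Csn3, the kappa-casein gene of the same cluster, had 12.04, 12.32 and 12.39, a range of 0.35, and Wfdc18, a whey acidic protein domain gene, had 13.01, 13.05 and 13.20. Xdh, which builds the milk fat globule, had 11.29, 11.73 and 11.83, and Plin2, which coats lipid droplets, 11.77, 12.63 and 12.15, a range of 0.86. These were above the bar in each mouse, with WT1 lowest in each.

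At the other end, Csn1s2b, Glycam1 and Cel were above the bar in no mouse. Wap, the whey acidic protein gene, had 7.57, 8.08 and 9.33 and was above on WT3 only. Lao1, an amino acid oxidase of milk, showed the same order more widely, with 5.70, 6.90 and 9.91, and was again above on WT3 only, at least 2.51-fold over WT1.

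**Figure D3:**
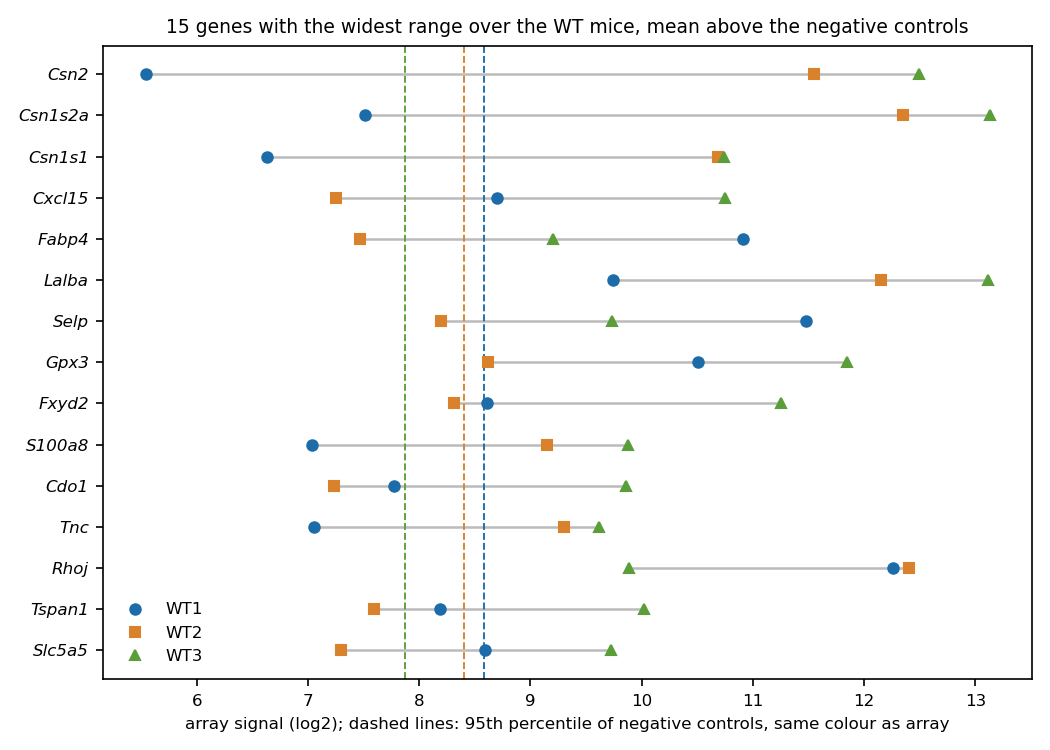
Log2 array signal on WT1 (circles), WT2 (squares) and WT3 (triangles) of the 15 genes with the largest range over the 3 mice among genes with a mean above the negative controls, with each array's 95th percentile of the negative controls as a dashed line of the same colour. Csn2, Csn1s2a, Csn1s1 and Lalba are lowest on WT1, while Fabp4 and Selp are highest on WT1 and lowest on WT2.

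The other genes among the 15 widest did not share 1 order of mice. Cxcl15, a chemokine, had 8.70, 7.25 and 10.75, Fxyd2, a regulator of the sodium pump, 8.61, 8.31 and 11.25, Cdo1, which oxidizes cysteine, 7.77, 7.23 and 9.86, Tspan1, a tetraspanin, 8.19, 7.59 and 10.02, and Slc5a5, the sodium iodide symporter, 8.59, 7.30 and 9.72. In these 5 genes WT3 was highest and WT2 lowest. Gpx3, the secreted glutathione peroxidase, had the same order with 10.51, 8.62 and 11.85 and was above the bar in every mouse. Tnc, the matrix protein tenascin C, followed the casein order instead, at 7.05, 9.30 and 9.62.

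Rhoj, a small GTPase, was the reverse, with 12.26 and 12.40 on WT1 and WT2 and 9.89 on WT3, so WT3 was 5.70-fold below WT2. Fabp4, a fatty acid binding protein of adipocytes and capillary endothelium, had 10.91, 7.47 and 9.20, and Selp, which encodes P-selectin of platelets and endothelium, 11.48, 8.20 and 9.73. WT1 was the highest mouse for both and WT2 was below its bar. The calls of Cxcl15 and Fxyd2 above the bar rested on WT3 (limma adjusted p = 0.05 and 0.878 without it, the differences being -0.51 and -0.03).

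Secreted defence proteins fell into a small group far above the bar and a larger group below it. Of 18 measured, 6 were called (33.3%), each on all 3 arrays: Lcn2, Cd14, Ltf, Chil1, Lbp and Lrg1. Lcn2, which binds bacterial siderophores, had 13.14, 13.23 and 13.22, and Chil1, a chitinase-like protein, 10.78, 11.25 and 11.24. Lrg1, a leucine-rich glycoprotein, ran over 9.10, 9.63 and 10.25. Lysozyme (Lyz1 and Lyz2), the serum amyloids Saa1, Saa2 and Saa3, Lpo, Reg3g and Defb1 were above the bar in no mouse.

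S100a8, a subunit of the antimicrobial protein calprotectin, was the most variable member, at 7.04, 9.15 and 9.88, but its partner S100a9 was below the bar in every mouse (4.85, 5.41 and 5.98). As with the milk genes, WT1 was the lowest mouse for 12 of the 18 defence genes and WT3 the highest for 11, whereas over all probe sets WT1 was lowest for 37.3% and WT3 highest for 34.7%. Of the 18, 9 were above the bar on no array, so part of this order lay within the range of the negative controls. The list median deviated by -0.31 on WT1, -0.02 on WT2 and 0.37 on WT3. Ltf, Cd14 and Lbp are on both this list and the ER-negative marker list.

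Fatty acid and triglyceride synthesis, which supplies milk fat, was present in part. Of 16 genes, 7 were called (43.8%), 3 with the 99th percentile of the negative controls as the bar and 12 with the 90th, the furthest above the bar being Acly (11.79, 11.79 and 12.13), which makes cytosolic acetyl-CoA, Scd1 (11.37, 10.69 and 11.52), which introduces a double bond into fatty acids, and Me1 (10.64, 11.18 and 10.73), a source of NADPH. Fasn, the fatty acid synthase, had 10.21, 10.58 and 10.83. These lay above the bar in each mouse. Fabp3, the heart-type fatty acid binding protein, was at 5.19 and 5.26 on WT1 and WT2, below the bar, and at 9.38 on WT3, at least 1.74-fold over the bar of WT1.

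The NF-kB pathway, which turns signals of Tnf and RANK into transcription, was above the bar in most of its members. Of 22 family members and targets, 16 were called (72.7%, against 18.5% of all genes), all 16 on each array, with a median 1.31 above the bar. With the 99th percentile of the negative controls as the bar, 7 were called. The subunits were steady between mice, with Rela at 10.73, 10.82 and 10.72, Relb at 9.73, 9.64 and 9.62, Rel at 9.41, 9.28 and 9.17 and Nfkb2 at 11.08 on WT2 and 11.11 on WT3, with WT1 just below them. Nfkb1 is among the probe sets not named here. No subunit differed by more than 0.24 between mice.

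Nfkbia, which encodes the inhibitor that holds NF-kB in the cytoplasm, had 11.37, 11.35 and 11.42. Among the targets, Tnfaip2 had 12.21, 11.80 and 11.64, Tnfaip3, the A20 feedback inhibitor, 9.40, 9.31 and 9.84, and Icam1, an adhesion molecule, 11.16, 11.58 and 11.81. Csf1, the macrophage growth factor, was the widest called member, at 12.68, 12.17 and 11.38, with WT1 highest and WT3 lowest. The ligand Tnf itself lay nearer the bar, at 8.62 on WT1 and 9.40 on WT3 with WT2 between them. Its call in limma was lost without WT3 (difference 0.32, adjusted p = 0.127). It was also lost without WT2 (0.79, adjusted p = 0.073), where the fit on 2 arrays needed a larger difference for a call.

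The chemokines Cxcl10, Ccl2, Ccl20 and Cxcl5 were above the bar in no mouse. Il6 was above it on WT1 only, with 8.65 there, 5.09 on WT2 and 6.31 on WT3. Of 20 genes of the Tnf receptor superfamily, 4 were called (20%, near the 18.5% of all genes). Tnfrsf12a, the receptor of Tweak, had 12.63, 12.95 and 12.72, and Tnfrsf1a, the main Tnf receptor, 10.47, 10.61 and 10.52.

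Genes known to respond within minutes to stimulation and to tissue dissociation were also above the bar. Of 23 immediate-early genes, 13 were called (56.5%) and 16 were above on all 3 arrays. With the 90th percentile of the negative controls or with the antigenomic background as the bar, 20 were called. Junb (11.99, 11.92 and 12.19), Ccn1 (11.42, 12.23 and 11.81), Myc (11.54, 11.71 and 11.63) and Fosb (11.51, 11.36 and 11.23) had means more than 3 above the bar. Egr1, a zinc finger factor, ranged most, at 11.21, 10.06 and 10.98. Socs3, Egr3 and Ccn2 were above in no mouse. Heat shock genes were called in 8 of 9 cases (88.9%) and all 9 were above on each array, with Hsp90aa1 at 12.48, 12.65 and 12.56 and Hspb1 at 12.38, 12.25 and 12.40. Cells were digested and sorted before lysis, and the part of that handling in these signals was not tested.

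Proliferation genes were mostly below the bar, and they differed between the mice. Only Pcna, the sliding clamp of DNA replication, was called of 18 cell cycle genes (5.56%, against 18.5% of all genes), at 10.69, 11.17 and 11.12. The proliferation antigen Mki67 had 8.16, 5.85 and 5.84, and Cdk1, the kinase that drives mitosis, had 6.99, 5.14 and 5.38. WT1 was the highest mouse for 16 of the 18 genes, but the called gene Pcna was lowest there. The list median deviated by 0.60 on WT1, -0.29 on WT2 and -0.36 on WT3. Since 15 of the 18 were above the bar in no mouse, this order was seen mainly within the range of the negative controls, and fold changes there are compressed.

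Replication-dependent histone genes, whose transcripts accumulate in S phase, were looked at after this order had been seen. Of 53 measured, 31 were called (58.5%) and 30 were above on all 3 arrays. WT1 was the highest mouse for 46 and WT2 the lowest for 46, against 29.6% and 27.6% of probe sets with a mean above the bar. H2bc3 had 11.11, 9.12 and 9.74, and H2ac15 had 11.14, 9.88 and 10.09. Others were steadier, such as H4c4 at 12.58, 12.33 and 12.37. Of the 53, 27 ranged over more than 1 log2 unit. Histone genes of 1 type are close copies, so their probe sets may share signal.

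The genes of antigen presentation were called in part. Of 14, 6 were called (42.9%). Among them were the class I genes B2m (12.20, 12.54 and 12.36), H2-K1 (11.81, 12.11 and 12.08) and H2-D1 (9.86, 10.19 and 10.30). The others were the class I pathway genes Tapbp, Psmb8 and Tap1. The class II genes H2-Aa, H2-Ab1 and H2-Eb1 and their activator Ciita were above the bar in no mouse. The class I pathway genes Tap2 and Psmb9 lay at the bar, with mean differences of 0.05 and 0.03, and were not called either. Nor was the class II loading gene H2-DMb1 (0.18). With the 99th percentile of the negative controls as the bar 2 of the 14 were called, and in a one-sample test of each gene 3. Psmb8, the immunoproteasome subunit, was the widest, at 8.89, 9.31 and 10.02. Of 13 interferon response genes, only Bst2 and Irf1 were called (15.4%), near the 18.5% of all genes. Irf1 lost its call in limma when any 1 mouse was left out. Without WT3 its difference was 0.24 (adjusted p = 0.231). It was 0.65 without WT1 and 0.83 without WT2 (adjusted p = 0.0581 and 0.0591), in fits that needed more than the 0.544 called with 3 arrays.

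Markers of other cell types were nearly all below the bar, although some of them set 1 mouse apart. Of 9 ER-positive luminal markers, 0 were called, and Esr1, the estrogen receptor, had 5.73, 5.87 and 6.35. Yet WT3 was the highest mouse for 7 of the 9. Foxa1, the pioneer factor of estrogen receptor binding, had 5.68, 5.31 and 8.35, Cited1 6.61, 7.87 and 10.00, and Prom1, a surface marker of hormone-sensing cells, 7.74, 7.23 and 9.56. Each of these was above the bar on WT3 only, as were Pgr, the progesterone receptor (7.21, 6.14 and 8.41), and Stc2 (8.96 on WT3 and below the bar in the other mice).

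The ER-positive list median deviated by 1.16 on WT3, against -0.44 on WT1 and -0.29 on WT2, and WT3 was also the array with the lowest bar and the highest milk gene signals. All 9 markers were below the bar on WT1 and WT2 and 4 of them on WT3 too, so these deviations were taken against signals within the range of the negative controls. Tnfsf11, which encodes RANK ligand, Greb1 and Wnt4 were above the bar in no mouse. In bulk RNA, fewer cells of a type and less RNA per cell cannot be told apart, and the part of ER-positive cells in the signals of WT3 was not tested.

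Basal markers were called in 0 of 14 cases, with Krt5 at 5.45, 5.56 and 6.01 and Trp63, the p63 gene, at 7.33, 5.72 and 6.74. Krt14 had 8.59, 7.30 and 8.95, which put it just over the bar on WT1 and over it on WT3. Sparc, a matrix protein that stromal cells also make, was the widest member, at 9.39, 6.91 and 8.23. It too was over the bar on WT1 and WT3. Of the 14 basal markers, 11 were above the bar in no mouse. Acta2, the smooth muscle actin of the myoepithelium, was below the bar in every mouse, with 8.37 on WT1, 6.50 on WT2 and 6.64 on WT3.

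Endothelial markers were below the bar in every mouse, 8 of 8 genes, but WT1 was the highest mouse for all 8 and 7 of them remained highest on WT1 after median centring, an order within the range of the negative controls. Cdh5, the adhesion protein of endothelial junctions, had 7.18 on WT1 and 4.77 on WT2 with WT3 near WT2, and Eng, a coreceptor of the same cells, 7.46, 4.79 and 6.94. Fibroblast markers were called in 0 of 8 cases, with Dcn (decorin) reaching the bar on WT1 only, at 9.60, 7.72 and 7.73. Fabp4, given above, was the one called member of the 6 adipocyte markers and lost its call without WT1 (0.20, limma adjusted p = 0.568) or without WT3 (0.70, limma adjusted p = 0.134), while Adipoq and Lep, the adipocyte hormones, stayed between 3.61 and 4.04. The part of endothelial or stromal RNA in the signals of WT1 was not tested.

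Blood cell lists had no member above the bar, 0 of 9 myeloid, 0 of 10 T and NK cell, 0 of 5 B cell and 0 of 2 erythroid markers in any mouse. Liver genes gave 0 of 8 calls and germ cell genes 0 of 8, and the 3 Y-linked genes, which female mice lack, were below the bar in every mouse. Of 6 neuron genes, Map2, a microtubule-associated protein, was called on all 3 arrays, at 9.98, 10.02 and 9.09, whereas Syn1, Rbfox3 and Snap25 were above in no mouse. The 1091 olfactory and 321 vomeronasal receptor genes had 0 calls between them and 0 above the bar on any array, against 18.5% of all genes. For every list with 0 calls in limma, the count was also 0 at an unadjusted p under 0.05 and with a one-sample test of each gene on its own. Over all probe sets these gave 4041 and 2620 against 4000 in limma, so neither was a much looser check. Other settings did give calls: with the 90th percentile of the negative controls as the bar, 2 ER-positive markers (Prom1 and Cited1), 3 basal markers (Krt14, Tagln and Sparc) and 1 fibroblast marker were called, and without WT1 the ER-positive marker Cited1.

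**Figure D4:**
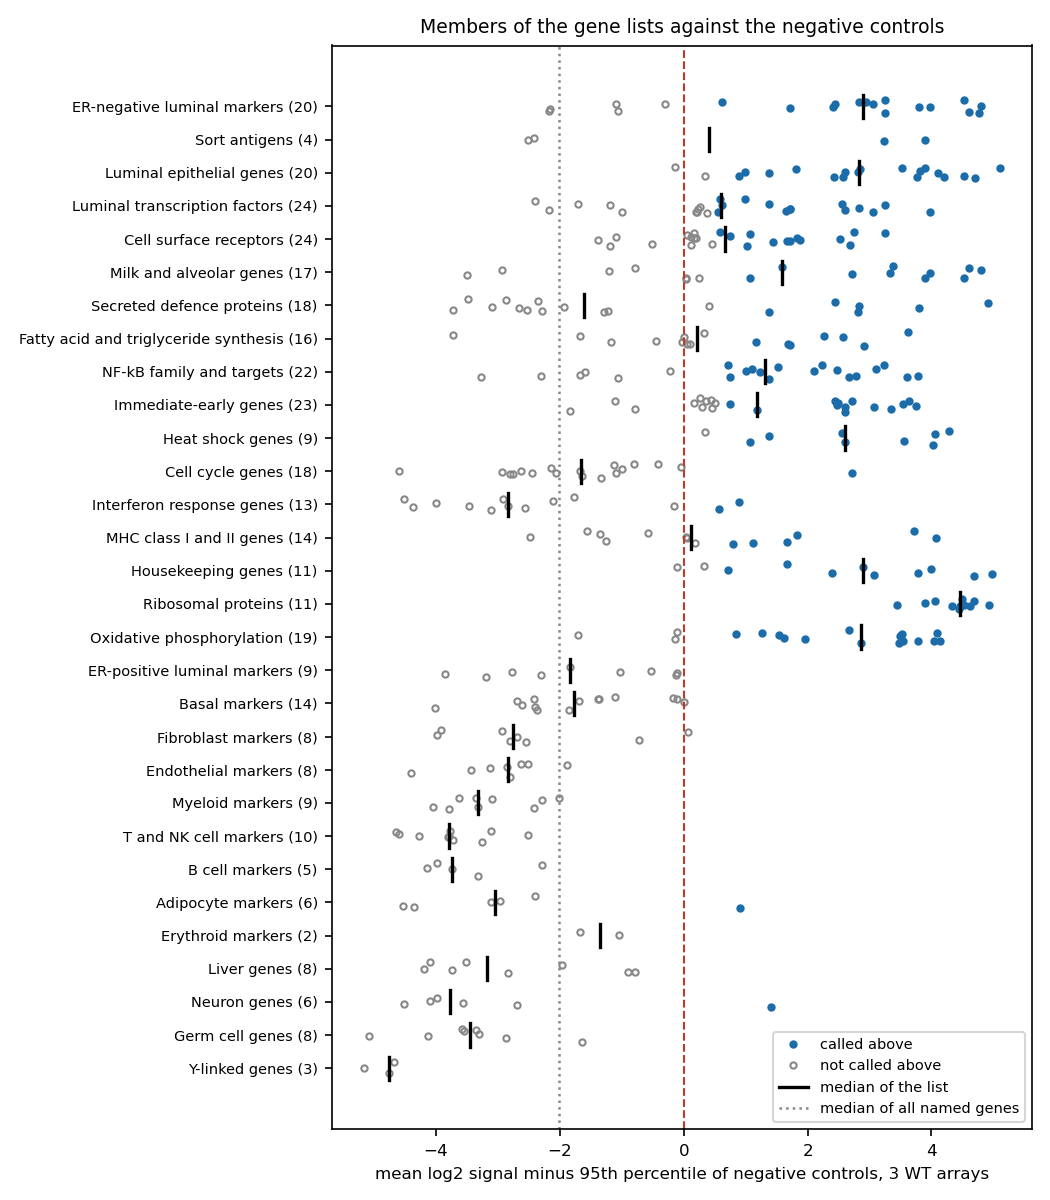
Mean log2 signal over the 3 WT arrays minus the 95th percentile of the negative controls (dashed line at 0) for every measured member of 30 gene lists, with filled points for genes called above by limma, open points for the others, a black bar for the list median and a dotted line for the median of all named genes (-2.01). Lists of luminal, NF-kB, ribosomal and oxidative phosphorylation genes have medians right of the line, and lists of other cell types have medians left of it.

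**Figure D5:**
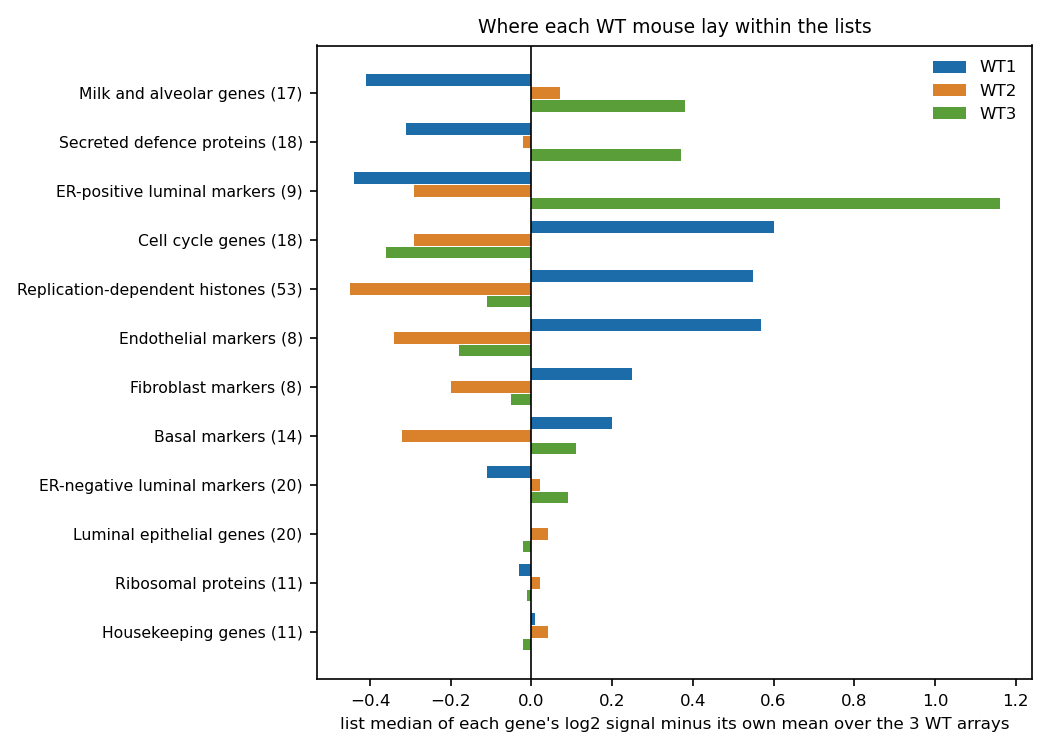
Median, over the members of a list, of each gene's log2 signal minus its own mean over the 3 WT arrays, with 1 bar for each mouse. WT1 lies low for milk genes (-0.41) and high for cell cycle (0.60), histone (0.55) and endothelial genes (0.57), WT3 lies high for ER-positive markers (1.16), and the luminal epithelial, ribosomal and housekeeping lists stay within 0.04 of 0.

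The single genes that set a mouse apart were counted after the values had been seen. A gene was taken when it was above the bar in at least 1 mouse, as 5966 genes were, and lay 1 log2 unit or more from the nearest other mouse. By this count 67 genes were higher and 15 lower on WT3, 32 higher and 19 lower on WT1, and 5 higher and 29 lower on WT2. Many entered through 1 array alone, 54 of the 67 higher on WT3 and 16 of the 32 higher on WT1, and the lower bar of WT3 lets in more genes there, so these counts do not rank the mice. Dmbt1, a secreted scavenger receptor of mucosal surfaces, had the largest bound on WT3, with 12.32 there and 5.60 and 6.37 on WT1 and WT2, at least 13.4-fold over WT1. The WT3 set also held Ido1, which degrades tryptophan (6.15, 5.15 and 8.91), and Tph1, which starts serotonin synthesis (6.95, 6.40 and 9.54).

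On WT1 the genes with the largest bounds above the other mice were Selp and Fabp4, given above, at least 8.46-fold and 5.70-fold over WT2. Aqp1, the water channel of capillaries, had 9.70, 8.12 and 8.05, which made WT1 3.14-fold higher than WT3, where it was above the bar, while WT2 was below its bar. Pbk, a mitotic kinase, had 8.78, 5.30 and 5.89, and with the other mice below their bars its bound was 1.30-fold. The largest bounds below the other mice on WT1 belonged to Csn1s2a, Csn2 and Lalba. WT2 was set apart mainly by low signals, such as Gpx3 and Fabp4 above.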

How the data were processed

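RNA of sorted cells was extracted with Trizol LS, labelled with the GeneChip WT PLUS kit and hybridised to Affymetrix Clariom S Pico mouse arrays, 1 for each mouse. The authors handled the scans with Expression Console and Transcriptome Analysis Console and deposited 1 processed value per probe set and array. The deposited values were read as log2 signals from their range and medians, and how the authors corrected background, normalized and summarized them is not given in the sources used here. If the normalization forces arrays towards 1 distribution, differences in total RNA between mice are lost.

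Only the 3 WT columns were used. Each gene's log2 signal minus the 95th percentile of the negative controls of the same array was tested against 0 with limma 3.58.1 in R 4.3.3 (intercept fit, eBayes, two-sided), with Benjamini-Hochberg adjustment over 22206 probe sets and a threshold of 0.05. The fit was tested on simulated data in which 200 probe sets were raised and all others placed at the bar, unlike these data. It recovered 0% of those raised by 0.5 log2 units, 48% of those raised by 1 and 100% of those raised by 2. For 55 symbols with several probe sets, the one with the highest mean stood for the gene. Spread between mice is the SD or the range, with no test. The arrays came from separate mice, and their number limits the precision. Array signals near background are compressed, which understates fold differences of dim genes. Folds with the lower mouse below its bar are bounds against that bar.

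The genes and the 30 lists were chosen with earlier results of these data known. Named genes were the given markers, genes that the study discusses in them, the 15 genes furthest above the bar, the 15 with the widest range among genes with a mean above it, up to 6 and 4 of each kind in each list, the sort antigens and called members of lists of other cell types. List members outside this rule, above or below the bar, families grouped by symbol and genes that set 1 mouse apart were named after their values were seen. Probe positions are not used here, so no gene coordinates are given except those of the promoters.

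The alternatives were another percentile of the negative controls, the antigenomic background probe sets, quantile normalization, median centring, a trended robust variance, a one-sample test per gene, the mean over probe sets of a gene, all probe sets for the spread, a requirement of all 3 arrays, and each mouse left out. A single bar for all arrays was added after seeing the data.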

Additional observations from a re-analysis of the deposited data

How the results depend on the processing

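Quantile normalization (3947), the 90th percentile (5926), the antigenomic background (5432), a trended robust variance (3812), a single bar chosen after seeing the data (4575) and the requirement of all 3 arrays (4391) left the count of 4000 probe sets above the bar within 1.5 times. Median centring moves the probe sets and the bar of an array together, so its count of 4000 was fixed in advance and is no check. The 99th percentile of the negative controls gave 1120 and a one-sample test of each gene 2620. Leaving out a mouse gave between 3442 and 4065. Of 147 named genes, 127 were called, of which 127 kept their call under quantile normalization, 94 at the 99th percentile, 102 in the one-sample test and between 119 and 125 without 1 mouse. Elf5 lay at -1.17 at the 99th percentile, below that bar.

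The count of probe sets ranging over more than 1 log2 unit was 202, 209 after quantile normalization and 208 after median centring. It was 876 with probe sets below the bar included. Leaving out a mouse gave between 60 (without WT3) and 165 (without WT2), with 99 without WT1, and a range over fewer mice is smaller by construction. List members called were 153, 99 at the 99th percentile, between 121 and 199 in the other settings and between 141 and 155 without 1 mouse.

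No paired analysis was possible because only the WT mice are described and no groups are compared. With 3 mice and no repeated array of a mouse, differences between mice cannot be told apart from differences between sorts, RNA samples or arrays. A gene below the bar is not shown to be silent.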

Other observations

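Some further gene families, grouped by symbol after the values had been seen, add to the description of these cells. Of 16 S100 genes, which encode calcium-binding proteins, 6 were called above the bar (37.5%), and 5 of these 6 ranged over less than 0.40 between mice, such as S100a10 at 12.31, 12.22 and 12.25 and S100a6 at 11.04, 10.80 and 10.93. Of 19 Wnt ligands, 1 was called, Wnt5b, at 9.29, 10.28 and 9.70. Of 21 Fgf ligands, 0 were called in limma, 0 at an unadjusted p under 0.05 and 0 in a one-sample test of each gene. Complex I, the entry of the respiratory chain, had 32 of 36 subunits called (88.9%), none ranging over more than 1 log2 unit.

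Among the 2634 unnamed probe sets, 384 were called above the bar (14.6%), and 103 ranged over more than 1 log2 unit, the widest over 5.69. They are given as counts because no gene can be attached to them here.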
